A study of Homo sapiens with 4 samples.

Results

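The Huh7 comparison set 1 library of treated cells against 1 library of untreated cells, 2 of the 4 libraries of the series, and read it across all 19739 coding genes and 29119 long noncoding transcripts of the deposited tables. Huh7 is an established human hepatocellular carcinoma line that keeps much of the secretory programme of the liver. For 24 h the treated Huh7 cells were given RSL3@O2-ICG NBS, a preparation whose abbreviation the labels do not spell out, and LFS, low-frequency ultrasound. The untreated Huh7 cells were given neither. The other 2 libraries came from cells labelled HepG2, untreated and treated in the same way, and their values stand beside those of Huh7 where a second line helps. RSL3, its carrier and the ultrasound were never given singly in the libraries analysed here, so the parts of the treatment cannot be told apart. With 1 library on each side there is no replicate, no error between cultures and no test, and every difference below describes these 2 libraries.

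RSL3 is a small molecule that binds and inactivates GPX4, the selenoenzyme that reduces lipid hydroperoxides in membranes. Cells that lose this protection can die by ferroptosis, a death that depends on iron and on the peroxidation of polyunsaturated lipids. Cells under such stress are known to engage NRF2, the transcription factor that drives antioxidant, iron-storage and glutathione genes, and ferritin, which keeps iron in a mineral store.

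Depth inferred from the smallest steps of the values was 26600000 fragments in the untreated and 22800000 in the treated Huh7 library, and 23200000 to 26000000 in the others. A transcript of 1 kb at 1 FPKM (fragments per kilobase of transcript, scaled to the sequenced fragments of the library) then rested on 27 fragments untreated and 23 treated, with exact 95% Poisson intervals of 17.8 to 39.3 and 14.6 to 34.5 that cover counting error only. All 14 hepatocyte markers were at 1 FPKM or more in at least 1 Huh7 library, with ALB (serum albumin) read at 883 FPKM before and 711 FPKM after treatment. None of these 14 markers reached that level in the libraries labelled HepG2, where ALB was listed at 0, against what that line is known for, so they are named by their label. Of 9 endothelial markers none reached 1 FPKM in Huh7, and 7 of 10 blood cell markers and 8 of 11 fibroblast and stellate markers were under 1 FPKM in both Huh7 libraries. Of 8 cholangiocyte (bile duct cell) markers, 6 reached 1 FPKM in at least 1 Huh7 library and 2 did not. KRT19 read 578 FPKM untreated and 482 FPKM treated, and EPCAM 46.5 and 42.6 FPKM.

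Of 11945 coding genes at 1 FPKM or more in at least 1 Huh7 library, 464 were at least 2-fold higher after treatment (3.88%) and 261 at least 2-fold lower (2.19%), on the scale log2((treated FPKM + 1)/(untreated FPKM + 1)), which understates the change of low genes. The higher genes made up 64.0% of these differences, or 51.2% (336 higher, 320 lower) when the treated library was rescaled by its median ratio. Over all considered genes the median log2 ratio stood at 0.10, with 95% of genes from −0.95 to 1.11. In the libraries labelled HepG2, of 11843 genes, 6.7% were higher, 2.43% lower and so 9.14% past 2-fold in either direction. Treated Huh7 cells held more transcript of NRF2 targets, ferritins, metallothioneins and mitotic genes. They held less transcript of DNA replication genes, of ID1 to ID4, SMAD6 and SMAD7, and of many secreted plasma proteins. Nearest to the 2-fold line, and chosen by that position, were IL17RD inside it (0.338 FPKM untreated and 1.68 FPKM treated) and EYS outside it (0.129 and 1.26 FPKM) on the high side. On the low side they were TOE1 inside (16.1 and 7.54 FPKM) and VIL1 outside (57.2 and 28.1 FPKM).

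**Figure D1:**
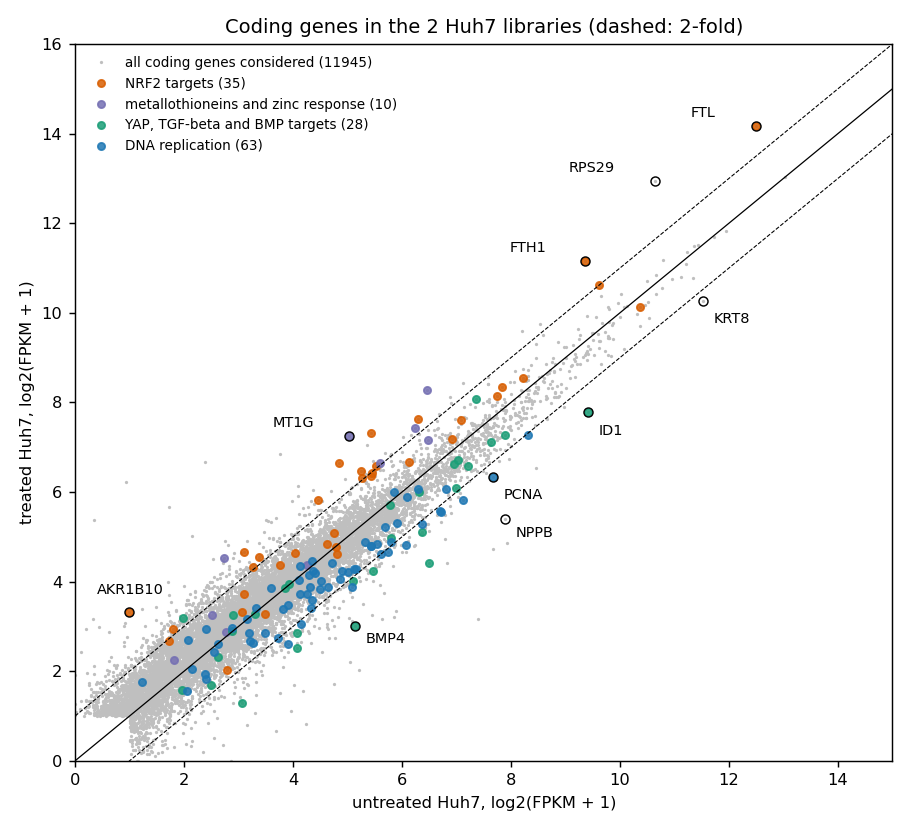
Level of each coding gene in the untreated (x axis) and treated (y axis) Huh7 library, as log2(FPKM + 1); grey points are the 11945 genes considered, coloured points the members of 4 gene lists, and dashed lines mark 2-fold. FTL, FTH1, RPS29, MT1G and AKR1B10 lie above the upper line, and ID1, PCNA, BMP4, NPPB and KRT8 below the lower one.

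The ratio moved with 3 properties of the transcripts. By the longest coding transcript, the median log2 ratio was −0.13 over 514 genes under 1000 bases and 0.25 over 968 genes of 8000 bases or more. By mean level it was 0.23 over 2287 genes under 3 FPKM and −0.17 over 555 genes of 100 FPKM or more. By GC content it was 0.285 over 1822 genes under 40% GC and 0.00 over 1789 genes of 50% to 55%. It was 0.13 again over 1858 genes of 60% GC or more, so the relation with GC was not of 1 direction. The properties were not combined. The part of these properties in the list medians was not tested.

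**Figure D2:**
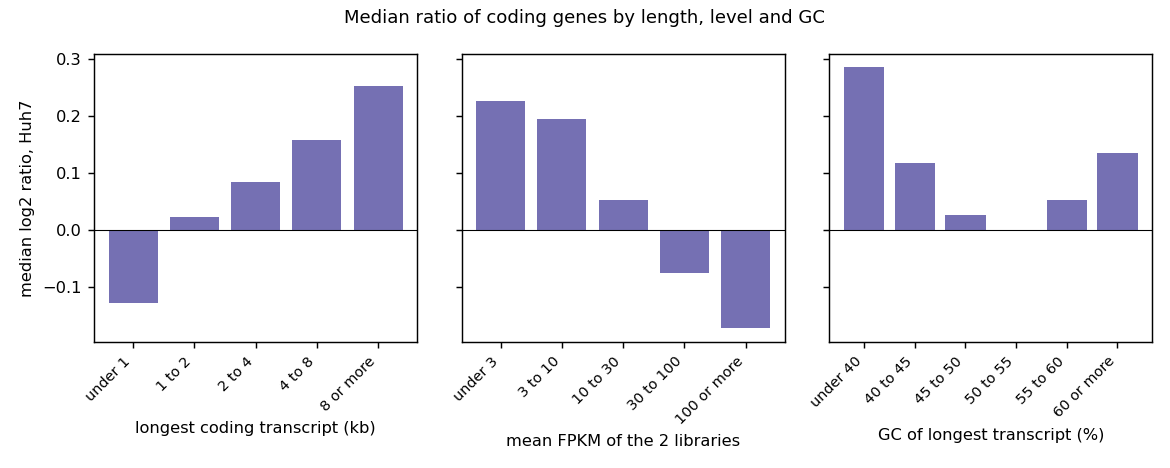
Median log2 ratio of treated over untreated Huh7 (bars, from 0) for genes grouped by the length of their longest coding transcript, by their mean FPKM and by GC content. The bars run from −0.13 to 0.25 with length, from 0.23 down to −0.17 with level, and from 0.285 to 0.00 and up to 0.13 with GC.

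The genes of ferroptosis itself gave a mixed picture. GPX4, the protein that RSL3 binds, stood at 290 FPKM untreated and 255 FPKM treated (log2 ratio −0.18). SLC7A11, which imports cystine for glutathione synthesis, went from 2.29 to 5.36 FPKM, just short of 2-fold at 0.95, and its partner chain SLC3A2 from 117 to 277 FPKM (1.24). The glutathione-degrading enzyme CHAC1 stood at 2.08 and 6.73 FPKM (1.33). ACSL4, the acyl-CoA synthetase that primes long polyunsaturated acids for membranes, stood at 30.1 and 39.3 FPKM, and AIFM2, a quinone reductase that acts beside GPX4, at 21.8 and 17.1 FPKM. The cyclooxygenase PTGS2, often used as a ferroptosis marker, was under 1 FPKM in both Huh7 libraries. After rescaling by the median ratio 2 of 24 considered genes of glutathione and selenoenzymes were at least 2-fold higher. Without rescaling 5 were higher and 0 lower (median 0.13), against 3.88% higher over all genes. Besides SLC3A2 and CHAC1 these were GPX3, a secreted glutathione peroxidase (21.8 and 47.3 FPKM), GCLC, the catalytic subunit of the first step of glutathione synthesis (8.66 and 19 FPKM), and TXNRD1, a thioredoxin reductase (37.5 and 78.4 FPKM). None of 14 considered genes of polyunsaturated lipid remodelling and none of 20 of other lipid peroxide defence passed 2-fold. Over all genes 6.07% did in either direction, so in lists this small none is near that share. The other 11 of the 25 remodelling genes were under 1 FPKM in both Huh7 libraries.

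Both ferritin chains were higher. FTL (ENSG00000087086), which encodes ferritin's light chain at 48965309 to 48966879 on chromosome 19 (GRCh38), was the most abundant coding transcript of the treated library, at 18301.6 FPKM against 5785.7 FPKM untreated. FTH1, the ferritin heavy chain, stood at 659 and 2295.7 FPKM, with 62.4% of its exonic bases in other genes. The largest overlap was with BEST1, which was read at 11.6 and 11.8 FPKM. HMOX1, which frees iron from haem, stood at 21 and 55.6 FPKM, and CYBRD1, a ferric reductase, at 0.228 and 1.52 FPKM. The transferrin receptor TFRC stood at 60.1 and 34.0 FPKM (−0.80) and the zinc and iron importer SLC39A14 at 185 and 103 FPKM (−0.84). Against 3.88% higher over all genes, 4 of the 18 considered genes of iron storage and traffic were at least 2-fold higher and 0 lower. Their median of 0.05 became −0.05 after rescaling by the median ratio and −0.07 with a filter at 5 FPKM.

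NRF2 targets were higher as a group. NRF2 is held low by KEAP1 until oxidants or electrophiles modify KEAP1, and then binds antioxidant response elements in promoters and enhancers. Of 35 considered targets 14 were at least 2-fold higher and 0 lower, against 3.88% higher over all genes, with a median log2 ratio of 0.93 and 30 of 35 above 0. The members were picked with earlier results of these data known. AKR1B10, an aldo-keto reductase that detoxifies lipid-derived aldehydes, went from 0.988 to 9.06 FPKM (2.34). Its relatives AKR1C2 (42.1 and 159 FPKM) and AKR1C1 (27.8 and 98.8 FPKM) are near-identical copies between which reads can be split. OSGIN1, an oxidative stress-induced growth inhibitor, stood at 7.55 and 24.1 FPKM and the biliverdin reductase BLVRB at 77.0 and 196 FPKM. The sulfiredoxin SRXN1 stood at 45.1 and 94.1 FPKM. The export pump ABCC3 stood at 9.41 and 22.3 FPKM. FTL, FTH1, HMOX1, GCLC, TXNRD1 and TRIM16L were also among the 14. SQSTM1, an autophagy receptor (788 and 1570.6 FPKM), lay at 0.99, and the widely used reporter NQO1 at 0.50 (228 and 323 FPKM). PRDX1, an abundant peroxiredoxin, stood at 1321.7 and 1114.3 FPKM. The transcripts of NFE2L2, which encodes NRF2, and of KEAP1 read 33.6 and 46.3 FPKM, and 40.1 and 41.8 FPKM. For the line labelled HepG2, 5 of 34 considered NRF2 targets were higher and 0 lower (median 0.12), against 6.7% higher over all its genes. The difference between the lines was not tested.

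The promoter of TXNRD1 is shown because it carries matches to the core of the antioxidant response element and had the largest ratio among the NRF2 targets that do. The 300 bases run from 250 before to 50 after the RefSeq start (GRCh38.p14, chr12:104215529-104215828, plus strand), and capitals mark the 2 matches to TGACNNNGC on either strand.

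TXNRD1: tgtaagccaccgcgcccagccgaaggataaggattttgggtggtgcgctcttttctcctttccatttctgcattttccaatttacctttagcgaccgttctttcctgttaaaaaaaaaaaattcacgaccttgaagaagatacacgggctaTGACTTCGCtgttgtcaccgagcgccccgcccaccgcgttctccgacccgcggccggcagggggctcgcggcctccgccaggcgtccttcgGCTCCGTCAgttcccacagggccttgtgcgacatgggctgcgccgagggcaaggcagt

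Of 26 NRF2 targets with a RefSeq promoter 8 held this motif (30.8%), against 15.2% of 9730 considered genes with one. Among the 363 genes at least 2-fold higher with a RefSeq promoter, 14.9% held it, the same share as over all genes to within 1 percentage point. The targets with a match had a median log2 ratio of 0.61 and those without one 0.57.

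Metallothioneins, small cysteine-rich proteins that bind zinc and copper, were higher along a cluster on chromosome 16. From MT2A to MT1G (56608584 to 56668065) lie 5 genes past 2-fold. MT1G stood at 31.4 FPKM untreated and 151 FPKM treated (2.23). MT2A stood at 87.4 and 309 FPKM (1.81), MT1E at 74.2 and 170 FPKM, MT1M at 5.63 and 22 FPKM, and MT1F at 47.3 and 98.7 FPKM. MT1X, further along, stood at 88.4 and 143 FPKM (0.68) and MT1A, named for its place within the cluster after its value was seen, at 4.67 and 8.59 FPKM (0.76). All 10 considered genes of the list, which also holds zinc transporters and their regulator MTF1, were above 0, with a median of 0.90. Of these 5 were at least 2-fold higher, against 3.88% over all genes. The copies resemble one another, so reads may be shared among them. In the libraries labelled HepG2, MT1G, MT1M and MT1F were listed at or near 0, and MT2A read 89.3 and 219 FPKM.

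The promoter of MT2A is given for its metal response elements, the sites of the zinc sensor MTF1 (GRCh38.p14, chr16:56608334-56608633, plus strand). Capitals mark the 2 matches, on either strand, to TGCNCNC followed at once by GGC, the first of which begins 153 bases before the start.

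MT2A: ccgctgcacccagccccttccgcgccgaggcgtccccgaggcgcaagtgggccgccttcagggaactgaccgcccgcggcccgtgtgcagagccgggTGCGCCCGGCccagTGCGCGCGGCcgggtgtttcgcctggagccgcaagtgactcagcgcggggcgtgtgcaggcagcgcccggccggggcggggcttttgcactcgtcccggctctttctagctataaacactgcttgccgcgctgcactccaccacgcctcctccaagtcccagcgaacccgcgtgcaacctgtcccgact

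This motif was found in 3 of the 5 genes of the list with a RefSeq promoter and in 3.91% of the 9730 promoters.

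AHR targets, which respond to aromatic ligands, were listed together with the receptor. Of 6 considered members 3 were at least 2-fold higher, against 3.88% over all genes, and all 6 were above 0. The other 4 of 10 were under 1 FPKM in both Huh7 libraries. Rescaling by the median ratio left 2 past 2-fold. CYP1A1, the cytochrome P450 best known for AHR induction, stood at 17.3 and 48.8 FPKM (1.45). AHRR, the repressor of the receptor, stood at 2.75 and 7.24 FPKM under an identifier that is not in GENCODE 29. UGT1A6, a glucuronosyltransferase whose exons overlap other UGT1A genes, stood at 0.429 and 1.94 FPKM. The receptor AHR itself was at 43.3 and 62.2 FPKM.

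Mitotic genes were higher and DNA replication genes lower in the same treated library. Transcripts of the S-phase machinery are driven mainly by E2F factors and peak before those of mitosis, which are released from repression by the DREAM complex and driven by B-MYB and FOXM1. Of 74 considered mitosis and spindle genes 15 were at least 2-fold higher and 0 lower, against 3.88% higher over all genes. The mitotic median log2 ratio was 0.59, with 65 of 74 above 0. Of 63 DNA replication genes 12 were at least 2-fold lower and 0 higher, against 2.19% lower over all genes, with a median of −0.54 and 53 of 63 below 0. The mitotic list had a median mean level of 20.1 FPKM, a median GC of 43.2% and a median longest transcript of 3.15 kb. The replication list had 18.5 FPKM, 48.1% and 3.25 kb, so the lists were alike in level and length and less so in GC.

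HMMR, a spindle-associated hyaluronan receptor, led the mitotic list at 4.78 FPKM untreated and 21.9 FPKM treated (1.98). ASPM, which organises spindle poles, stood at 1.82 and 9.78 FPKM (1.94) and the checkpoint kinase TTK at 5.53 and 21.4 FPKM (1.78). The kinetochore motor CENPE stood at 0.864 and 4.93 FPKM and CENPF at 3.20 and 11 FPKM. KIF18A, a kinesin that trims spindle microtubules, stood at 3.15 and 11 FPKM. The topoisomerase TOP2A stood at 15.9 and 35.7 FPKM and the phosphatase CDC25B, which activates CDK1, at 50.7 and 116 FPKM. The kinetochore protein NDC80 went from 9.44 to 21.8 FPKM. The remaining members past 2-fold were PIF1, SGO2, DLGAP5, DEPDC1, ECT2 and NEK2. The most abundant members differed less. CCNB1, the mitotic cyclin, stood at 97.6 and 112 FPKM (0.19), CDC20 at 112 and 147 FPKM (0.39), PTTG1 (securin) at 351 and 325 FPKM (−0.11) and KPNA2 at 208 and 245 FPKM (0.24). CDK1 lay at 0.90 (32.0 and 60.6 FPKM). The range over the list was −0.54 to 1.98.

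PCNA, the sliding clamp of DNA polymerases, led the replication list at 202 FPKM untreated and 79.7 FPKM treated (−1.33). The MCM2 to MCM7 helicase had 5 of its 6 subunits past 2-fold. MCM3 stood at 138 and 55.1 FPKM (−1.31), MCM7 at 316 and 153 FPKM (−1.04), MCM4 at 104 and 46.2 FPKM, MCM2 at 81.3 and 38.1 FPKM, and MCM5 at 52.4 and 24.4 FPKM. MCM6, named here after its value was seen, lay at −0.92 (54.6 and 28.4 FPKM). The helicase partners CDC45 (16.6 and 7.24 FPKM) and GINS2 (33.0 and 13.8 FPKM), the flap nuclease FEN1 (103 and 46.3 FPKM) and the uracil glycosylase UNG (66.6 and 27.2 FPKM) were also at least 2-fold lower. UHRF1, which maintains DNA methylation at the fork, stood at 13.9 and 5.13 FPKM. TYMS, which makes thymidylate, stood at 48.2 and 23.4 FPKM, with 46.6% of its exonic bases in other genes, of which ENOSF1 overlaps most. Of 23 considered CDK inhibitors and cyclins 15 were above 0, with a median of 0.08. In this list 2 were at least 2-fold lower and 0 higher, against 2.19% and 3.88% of all genes. The 2 lower genes were the G1 cyclin CCND1 (66.4 and 24.1 FPKM, −1.42) and CDKN1A (p21), which blocks cyclin-dependent kinases (13.3 and 6.07 FPKM, −1.01). For the line labelled HepG2 the replication list had a median of −0.42 (1 of 63 higher, 4 lower) and the mitotic list −0.08 (0 of 74 higher, 1 lower). Over all considered genes of that line 6.7% were higher and 2.43% lower.

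**Figure D3:**
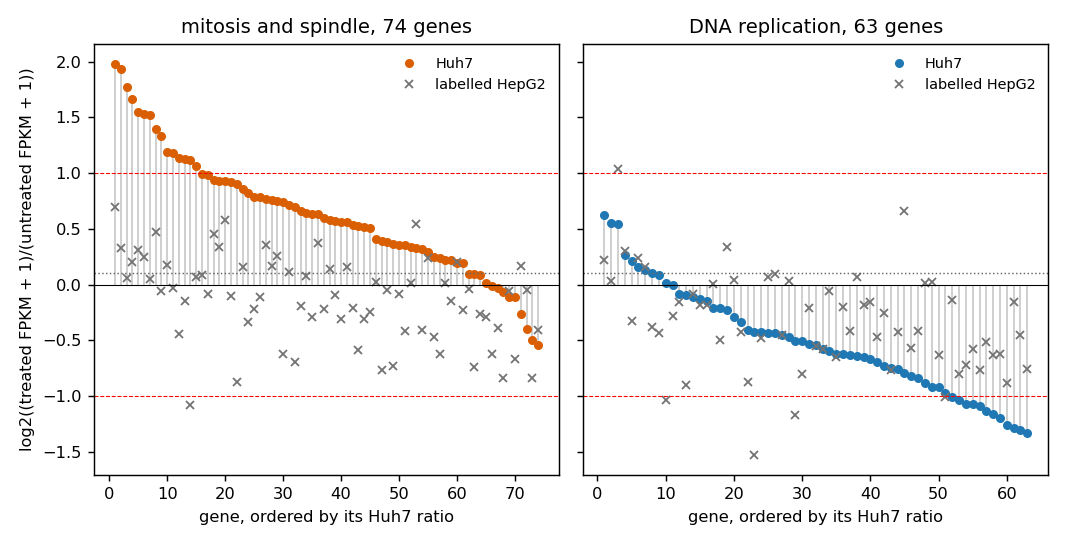
Log2 ratio of treated over untreated for each of 74 mitosis and spindle genes (left) and 63 DNA replication genes (right), ordered by the Huh7 value (filled points), with the value in the libraries labelled HepG2 as crosses; dashed lines mark 2-fold and the dotted line the median of all Huh7 genes. In Huh7 65 of the mitotic genes lie above 0 and 53 of the replication genes below it.

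The promoters of HMMR and MCM3 are shown for elements that their lists hold more often than all promoters do. In HMMR (GRCh38.p14, chr5:163460382-163460681, plus strand) capitals mark TTTGAA, the cell cycle genes homology region bound by the DREAM and B-MYB complexes, which occurs as 2 adjoining copies just before the start. In MCM3 (GRCh38.p14, chr6:52284693-52284992, minus strand) capitals mark the match to the E2F site TTTNGCGC, which overlaps the start. They are the members with the largest ratio in their list's direction that hold the motif.

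HMMR: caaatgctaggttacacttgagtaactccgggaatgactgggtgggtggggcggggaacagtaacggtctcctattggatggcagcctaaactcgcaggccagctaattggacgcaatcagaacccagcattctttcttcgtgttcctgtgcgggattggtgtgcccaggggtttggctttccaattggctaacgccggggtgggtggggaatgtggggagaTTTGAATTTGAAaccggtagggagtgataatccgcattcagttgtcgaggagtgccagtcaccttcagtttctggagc
MCM3: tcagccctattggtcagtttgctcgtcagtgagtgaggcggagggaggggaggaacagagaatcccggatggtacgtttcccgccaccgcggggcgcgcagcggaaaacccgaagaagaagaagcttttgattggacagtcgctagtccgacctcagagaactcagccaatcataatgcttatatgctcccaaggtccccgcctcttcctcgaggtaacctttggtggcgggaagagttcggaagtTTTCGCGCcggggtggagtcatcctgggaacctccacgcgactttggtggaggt

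On either strand TTTGAA was found in 43 of 63 mitotic promoters (68.3%) and in 9.53% of the 9730 promoters. TTTNGCGC was found in 17 of 53 replication promoters (32.1%) and in 3.19% of the 9730. The CCAAT box, bound by NF-Y, was found in 44 of 63 mitotic promoters (69.8%) and in 37.2% of all. The motif alone did not go with the ratio outside the lists: the 884 other genes with TTTGAA had a median log2 ratio of 0.11, against 0.09 without it. The 293 other genes with TTTNGCGC had 0.07, against 0.10. Within the lists, mitotic genes with TTTGAA had a median of 0.66 and those without it 0.54, and replication genes with TTTNGCGC −0.62 and those without it −0.59.

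Replication-dependent histone genes, whose messengers end in a stem-loop in place of a poly(A) tail, had a median log2 ratio of −0.42 over 54 considered genes, with 45 below 0. The sum of their levels was 12071.8 FPKM untreated and 9246.1 FPKM treated. By family the sums stood at 3396.3 and 2256.5 FPKM for H2A, 1934.3 and 1482.1 FPKM for H3, 1606.8 and 1272.0 FPKM for H2B, 2979.1 and 2511.0 FPKM for H4, and 2155.2 and 1724.6 FPKM for the linker H1. All 5 family sums were lower after treatment. SLBP, the stem-loop binding protein that processes these messengers, stood at 110 and 66.2 FPKM (−0.73). Single histone genes also held the widest ratios of all coding genes, in both directions. HIST1H3J went from 0.906 to 73.7 FPKM (5.29). HIST1H2AM, which overlaps it on chromosome 6, went from 167 to 7.92 FPKM (−4.23), with 88.0% of its exonic bases in other genes. The pair summed to 167 and 81.6 FPKM. HIST1H2BG went from 0.267 to 40.3 FPKM, HIST1H2AC from 4.19 to 101 FPKM and HIST1H2AD from 241 to 28.2 FPKM. HIST2H4B went from 12.6 to 114 FPKM beside its copy HIST2H4A at 140 and 237 FPKM.

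The 4 ID genes and the feedback inhibitors SMAD6, SMAD7 and BAMBI were at least 2-fold lower. BMP ligands act through SMAD1 and SMAD5 on the ID genes, which encode inhibitors of basic helix-loop-helix factors, and on these feedback inhibitors. They belong to a mixed list of YAP, TGF-beta and BMP genes, with a median of −0.56 and 23 below 0. Of its 28 considered genes 9 were at least 2-fold lower and 1 higher, against 2.19% and 3.88% of all genes. The ligand gene BMP4 (ENSG00000125378), at 53949736 to 53958761 on chromosome 14, read 34.0 FPKM untreated against 7.11 FPKM treated (−2.11). ID1 stood at 676 and 218 FPKM (−1.63), ID3 at 89.2 and 20.2 FPKM (−2.09), ID2 at 81.9 and 33.7 FPKM (−1.26) and ID4 at 7.34 and 1.43 FPKM (−1.78). All 4 ID genes were thus past 2-fold. SMAD6 stood at 15.8 and 4.70 FPKM, SMAD7 at 15.9 and 6.23 FPKM and the pseudoreceptor BAMBI at 33.2 and 15.1 FPKM. The activin subunit INHBE stood at 43.0 and 17.8 FPKM. BMP2, named after its value was seen, stood at 123 and 97.8 FPKM. The YAP targets CCN2 (237 and 154 FPKM) and ANKRD1 (197 and 139 FPKM) lay at −0.62 and −0.50. TGFBR1, a TGF-beta receptor, was the higher member (2.97 and 8.14 FPKM). Under the label HepG2, ID1 read 127 and 28.9 FPKM, ID3 67.3 and 16.3 FPKM and SMAD6 22.7 and 9.01 FPKM. There 11 of 30 considered members of the list were lower and 1 higher, against 2.43% and 6.7% of all genes.

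**Figure D4:**
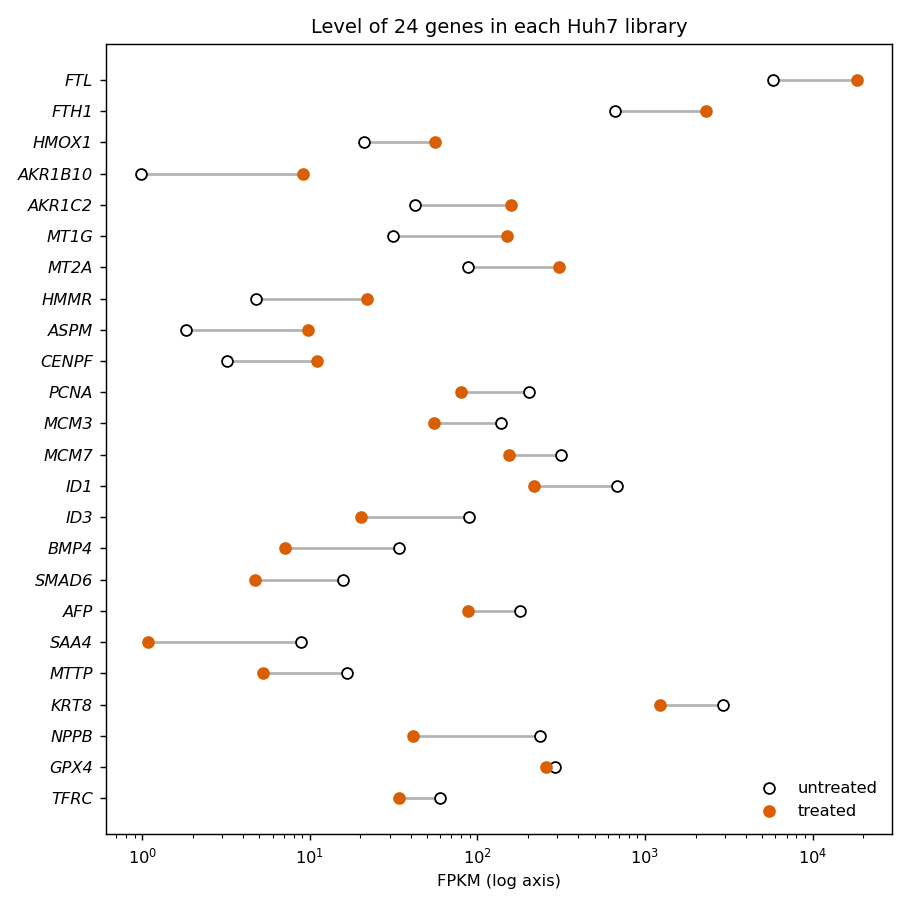
FPKM of 24 genes in the untreated (open) and treated (filled) Huh7 library on a log axis, 1 library each. The ferritins, HMOX1, aldo-keto reductases, metallothioneins and mitotic genes stand higher in the treated library, the replication, BMP and plasma protein genes, MTTP, KRT8, NPPB and TFRC lower, and the GPX4 points (290 and 255 FPKM) nearly touch.

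Plasma proteins, the main export of liver cells, were mostly lower. Of 52 considered carriers, clotting factors and complement genes 8 were at least 2-fold lower and 1 higher, against 2.19% and 3.88% of all genes. The list median was −0.40, with 44 below 0. The other 30 of the 82 on the list were under 1 FPKM in both Huh7 libraries. SAA4, a constitutive serum amyloid, stood at 8.84 and 1.09 FPKM (−2.24). Of its exonic bases 65.5% lie in other genes, of which a SAA2-SAA4 readthrough gene overlaps most. SERPINA5, the protein C inhibitor, stood at 27.7 and 9.69 FPKM (−1.42), and KNG1 (kininogen) at 7.33 and 2.62 FPKM. HPX, which carries haem, stood at 36.0 and 16.2 FPKM. A2M, SERPIND1 and the vitamin D carrier GC were also past 2-fold. AFP, the fetal albumin that marks many hepatocellular tumours, stood at 178 and 88.2 FPKM (−1.01). The 3 fibrinogen chains had ratios of −0.39 to −0.86, with FGB at 161 and 90.0 FPKM, and complement C3 stood at 483 and 300 FPKM (−0.68). AMBP, the precursor of bikunin, stood at 444 and 461 FPKM.

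Lipoprotein genes had members on both sides. MTTP, which loads lipid onto apolipoprotein B, stood at 16.7 and 5.27 FPKM (−1.50), the HDL receptor SCARB1 at 66.6 and 28.4 FPKM, and APOC3 at 33.7 and 14.2 FPKM. APOA2 stood at 349 and 628 FPKM (0.85) and APOE at 268 and 414 FPKM (0.63). Over 20 considered genes 3 were lower and 0 higher (median 0.00), against 2.19% lower over all genes. FGF19, the hormone that restrains bile acid synthesis, stood at 13.3 and 3.98 FPKM (−1.52). NPPB, the natriuretic peptide gene, was among the 20 lowest ratios at 236 and 41.2 FPKM (−2.49). The hepatocyte regulator CEBPA was at 229 and 228 FPKM. Of 26 considered liver transcription factors 1 was at least 2-fold higher and 0 lower, near the 3.88% higher over all genes. It was MLXIPL, the carbohydrate response factor (2.23 and 7.34 FPKM).

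In the cytoskeleton, KRT8 and KRT18, the keratin pair of simple epithelia, read 2936.3 and 1227.2 FPKM (−1.26) for KRT8 and 1070.7 and 584 FPKM (−0.87) for KRT18. KRT8 was the largest decrease in absolute FPKM of the 15 genes named for that. The hepatic tumour claudin CLDN6 (9.92 and 3.38 FPKM) and KRT23 (47.0 and 19.5 FPKM) were lower, and the tubulin TUBA1A was higher (4.34 and 14.2 FPKM).

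Heat shock, ATF4 and endoplasmic reticulum folding lists had some members past 2-fold in Huh7, where 3.88% of all genes were higher and 2.19% lower. Of 25 heat shock genes 3 were at least 2-fold higher, the cytosolic chaperone HSP90AA1 (101 and 214 FPKM) and the near-identical pair HSPA1A (35.0 and 71.2 FPKM) and HSPA1B (32.8 and 68.3 FPKM), all within 0.07 of the 2-fold line, and 0 of 25 were past it after rescaling by the median ratio. The most abundant member, HSPA8, stood at 1313.2 and 829 FPKM (−0.66). Of 37 ATF4 targets, the programme of amino acid and protein stress, 4 were higher and 2 lower (median 0.17). DDIT4, an inhibitor of mTORC1, stood at 4 and 12.3 FPKM and the stress cytokine GDF15 at 138 and 345 FPKM. TRIB3 stood at 178 and 253 FPKM, and PSPH, of serine synthesis, at 85.1 and 35.9 FPKM. The line labelled HepG2 had 19 of 39 ATF4 targets higher, against 6.7% over all its considered genes. Its GDF15 read 24.2 and 449 FPKM. Endoplasmic reticulum folding genes had a median of −0.23, with 2 of 38 at least 2-fold lower. These were SEC61B, of the protein-conducting channel (116 and 50.7 FPKM), and MANF, a secreted folding factor (44.7 and 18.9 FPKM). HSPA5, the main chaperone of that compartment, stood at 134 and 79.3 FPKM (−0.75).

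Cholesterol genes had a median above that of all genes. Of 33 cholesterol genes 3 were past 2-fold higher and 0 lower (median 0.35): IDI1 of the isoprenoid branch (19.7 and 64.9 FPKM), SC5D (1.84 and 4.99 FPKM) and HMGCS1 (189 and 380 FPKM), the last at 1.00. Rescaling by the median ratio left 1 of these 3, and 1 of the 2 lysosomal genes below. ACSS2, which activates acetate, stood at 44.9 and 94.4 FPKM. Fatty acid oxidation and PPAR targets had 0 of 32 higher and 1 lower (median 0.02). Of 58 lysosome and autophagy genes 2 were higher and 0 lower (median 0.31, 43 above 0), a share no larger than the 3.88% of all genes. These were the protease CTSF (18.3 and 50 FPKM) and the autophagy receptor TAX1BP1 (20.7 and 43.6 FPKM), and CTSD stood at 189 and 338 FPKM. In the hypoxia list LDHA, the lactate dehydrogenase of glycolysis (406 and 198 FPKM), the glucose transporter SLC2A1 (12.7 and 4.53 FPKM) and LOX were lower, while KDM3A, MXI1, DDIT4 and ENO2 were higher. Inflammatory genes had CXCL1 (63.0 and 24.4 FPKM), NFKBIA (44.2 and 19.6 FPKM) and TNFAIP2 lower, and 0 of 18 higher. Over all genes 2.19% were lower and 3.88% higher.

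Mitochondrial genes split by genome. Of the 13 genes encoded in mitochondrial DNA 12 were above 0, with a median of 0.37 and none past 2-fold. MT-CO1 stood at 1763.7 and 2310.2 FPKM and MT-ND5 at 75.5 and 120 FPKM. Of 77 nuclear genes of the respiratory chain 65 were below 0, with a median of −0.29. Of these 77 genes 2 were at least 2-fold lower, near the 2.19% of all genes. They were NDUFB1 (15.8 and 5.22 FPKM) and ATP5MF (74.5 and 27.1 FPKM). The nuclear genes had a median longest transcript of 1.26 kb and a median level of 54.9 FPKM, and the mitochondrially encoded ones 0.784 kb and 97.5 FPKM.

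**Figure D5:**
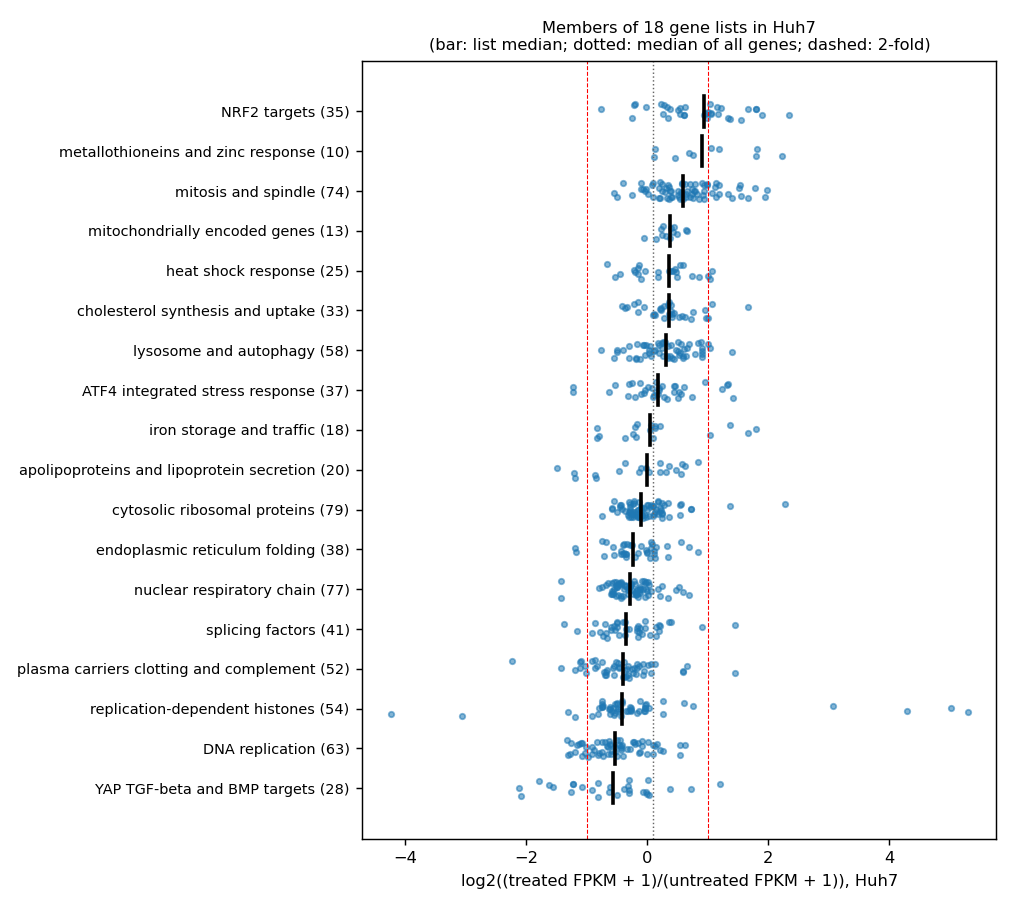
Log2 ratio of treated over untreated Huh7 for every considered member (points) of 18 gene lists, with the number of members in brackets; the bar is the list median, the dotted line the median of all genes (0.10) and the dashed lines 2-fold. NRF2 targets (median 0.93) and metallothioneins (0.90) lie furthest right, and DNA replication (−0.54) and YAP, TGF-beta and BMP targets (−0.56) furthest left.

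Of 79 ribosomal protein genes 77 were inside 2-fold (median −0.10), where 6.07% of all coding genes were past it in either direction. The exceptions were RPL29 (295 and 766 FPKM) and RPS29 (1604.8 and 7810.6 FPKM, 2.28). The listed span of RPS29 (chromosome 14, 49538746 to 49607611) contains RN7SL1, the RNA of the signal recognition particle, which was the most abundant noncoding transcript at 68153.0 and 76150.4 FPKM. An assembled transcript in the same span, called RPS29-OT1 by the authors, went from 0.605 to 123 FPKM, and in the libraries labelled HepG2 RPS29 read 2879.0 and 1601.4 FPKM. How reads were shared among these 3 overlapping entries was not tested.

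Several of the 20 highest and 20 lowest coding genes were likewise one of a pair on the same or copied sequence, where the partner moved the other way. CBSL stood at 14.6 and 1.16 FPKM and its copy CBS at 18 and 30.9 FPKM, with a sum of 32.6 and 32.1 FPKM. ARPIN-AP3S2 stood at 11.8 and 0.592 FPKM and AP3S2 at 11 and 22.2 FPKM, with a sum of 22.8 FPKM in both libraries. COMMD3-BMI1 read 0.153 and 6.72 FPKM where BMI1 read 9.78 and 4.57 FPKM. ZBED6 read 0.360 and 6.90 FPKM where ZC3H11A read 9.70 and 5.90 FPKM, and SMIM11B read 0.539 and 6.33 FPKM where SMIM11A read 14.5 and 6.05 FPKM. The sums of these 5 pairs differed by log2 ratios of −0.26 to 0.32. Of the 464 higher genes 15.5% and of the 261 lower genes 18% had at least 20% of their exonic bases in another gene, against 11.8% of all.

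Among the extreme genes without such overlap, SLC44A2, a choline transporter, stood at 3.40 and 31.3 FPKM (2.87) and the phosphatase DUSP15 at 0.248 and 8.01 FPKM. The renin-binding protein RENBP stood at 2.26 and 15 FPKM and the cation channel TRPM4 at 1.33 and 9.48 FPKM. PLA1A, a phosphatidylserine-specific phospholipase, stood at 5.76 and 28.8 FPKM, and SULT1C2, a sulfotransferase, at 0.857 and 7.02 FPKM. On the low side the galactosyltransferase B3GALT6 stood at 26.1 and 2.27 FPKM (−3.05) and the RNA polymerase II subunit POLR2D at 17.1 and 1.95 FPKM. JPT2 stood at 48.7 and 7.96 FPKM, the inositol kinase ITPK1 at 7.91 and 0.732 FPKM and HABP2, a plasma protease, at 12.5 and 1.86 FPKM. CD14, a lipopolysaccharide receptor also made by hepatocytes, stood at 15.1 and 2.21 FPKM (−2.33).

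Of 1548 noncoding transcripts at 1 FPKM or more in at least 1 Huh7 library, 159 were at least 2-fold higher (10.3%) and 85 lower (5.49%), with a median log2 ratio of 0.23. Transcripts with an Ensembl identifier had 99 higher and 48 lower of 935 (median 0.27), and assembled ones 60 and 37 of 613 (median 0.17). These values are per transcript, so a shift between isoforms of 1 gene counts on both sides. NEAT1-202, the long isoform that builds paraspeckles, stood at 1.39 and 6.69 FPKM (1.69), and its gene summed to 1.40 and 8.43 FPKM over 8 transcripts. MALAT1, a nuclear RNA of splicing speckles, summed to 25.4 and 59.1 FPKM, and in the line labelled HepG2 to 86.0 and 21.7 FPKM. SNHG7 summed to 46.0 and 97.7 FPKM and SNHG15 to 26.9 and 14 FPKM. CRNDE, a transcript raised in many tumours, summed to 13.3 and 5.98 FPKM. CYTOR-232 went from a listed 0 to 2.54 FPKM while the 38 CYTOR transcripts summed to 39.1 and 38.6 FPKM. LINC00667 likewise had 1 isoform among the highest (listed at 0, then 2.17 FPKM) and 1 among the lowest (3.97 and 0.0285 FPKM). KRT8-OT1, an assembled transcript over KRT8, stood at 276 and 154 FPKM.

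The authors' deposited enrichment tables for treated against untreated Huh7 cells list genes per term, and how these genes were chosen is not stated. The Gene Ontology table is marked CAD, a term the labels do not explain, and the KEGG table DEG. Together the authors' deposited tables name 2451 genes of the coding table, of which 1396 (57.0%) were under 1 FPKM in both Huh7 libraries. Of the other 1055, 291 were at least 2-fold higher and 236 lower by the measure used here. In the authors' deposited table of KEGG pathways, 1 of 271 had a corrected p under 0.05, steroid hormone biosynthesis with 26 listed genes of 57 (corrected p = 0.00175). Of those 26 genes 17 were under 1 FPKM in both libraries, and the 5 at least 2-fold higher were AKR1C1, AKR1C2, CYP1A1, UGT1A6 and HSD17B8 (3.58 and 12.6 FPKM), named here as members of that pathway. Among the next in the authors' deposited table were extracellular matrix receptors and complement and coagulation, both with a corrected p of 0.207, and DNA replication had 0.711. Of the 10 genes listed for DNA replication 8 were at least 2-fold lower and none higher. The authors listed these genes for the same comparison by an unstated rule, so this count does not bear on the corrected p. In the authors' deposited table of Gene Ontology terms 381 of 11546 had a corrected p under 0.05, led by extracellular matrix with 101 of 406 genes (corrected p = 2.63e-10), 63 of them under 1 FPKM in both libraries.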

How the data were processed

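Total RNA of the Huh7 cells was extracted with Trizol and 1 µg went into an Illumina TruSeq RNA kit, per the labels' protocols; RNA selection and strandedness are not stated there. The authors deposited FPKM per coding gene and per long noncoding transcript, 1 column per library, per the file headers. GATK, SAMtools 0.1.18, Picard 1.96, HISAT2, Bowtie2 2.2.8, Cuffdiff 2.1.1 and StringTie 1.3.1 appear in the submitters' processing notes, with no roles. No source used here gives the genome build. Enrichment tables were also deposited, holding a p-value and a corrected p-value per term, per the file headers; no source used here says how their genes were chosen.

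Each feature's log2 ratio, with 1 FPKM added to both values, was taken with pandas 2.3.3 over features at 1 FPKM or more in at least 1 of the 2 Huh7 libraries. With 1 library per group no test was made, and a count model was not used on FPKM. In RNA from whole cultures, fewer cells of a type and less RNA per cell cannot be told apart. Of 19664 identifiers found in GENCODE 29, 99.99% of listed positions overlap the gene there, so positions are on GRCh38 by this match. Overlap between genes was measured with bedtools 2.31.1. Depth was inferred from the step of low values of genes with 1 transcript.

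The 55 gene lists (1749 of 1757 symbols matched) and the Huh7 comparison were chosen with earlier results of these data known, and some lists and genes are not reported. The genes named are, by rule, the 20 highest and 20 lowest ratios, the 15 most abundant genes, the 15 largest FPKM differences, the list members past 2-fold, the 4 most abundant and 4 most changed of each list, 9 ferroptosis genes, and partners that share sequence with these. Noncoding transcripts are the 15 highest, 15 lowest and 10 most abundant; NEAT1, MALAT1, CYTOR, CRNDE and SNHG sums were added after their values were seen. Promoters come from RefSeq (GRCh38.p14); 9730 of the 11945 considered genes matched by symbol. The arithmetic of the ratio was tested on simulated data, which holds no replicate error. Alternatives were other pseudocounts, filters, scalings and leaving out overlapping genes.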

Additional observations from a re-analysis of the deposited data

Results flagged for a closer look

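Of the coding genes considered in both lines, 27 were at least 2-fold higher in one and at least 2-fold lower in the other, and 11 of these are among the genes named by rule. With 1 library per group the difference between the lines was not tested. TAX1BP3 had a log2 ratio of 3.95 in Huh7 and −1.38 in the libraries labelled HepG2. Of its exonic bases 73.8% lie in other genes, of which a readthrough gene overlaps most. COMMD3-BMI1 had 2.74 and −3.32, and ZBED6 2.54 and −3.07, with 100% and 96% of their exonic bases in other genes. The histone HIST4H4 had 2.03 and −1.84. TGFBR1 had 1.20 and −2.49, and TOP2A 1.12 and −1.08. On the other side CDKN1A had −1.01 in Huh7 and 2.32 in the libraries labelled HepG2, and INHBE −1.23 and 1.6. ARG2, the mitochondrial arginase, had −1.25 and 1.04. AC004922.1, which overlaps ARPC1B, had −2.37 and 4.58, and TMEM203 had −3.18 and 3.13.

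The median of 3 lists also pointed to opposite sides in the lines, again untested. Plasma carriers, clotting and complement genes had −0.40 over 52 genes in Huh7 and 0.34 over the 12 at 1 FPKM or more in the libraries labelled HepG2. Mitochondrially encoded genes had 0.37 in Huh7 and −0.56 in the libraries labelled HepG2, over the same 13 genes. Blood cell markers had −0.88 over 3 genes (CD14, LYZ and CD68) and 1.94 over 2.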

How the results depend on the processing

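No paired analysis was possible because each group holds 1 library. The 464 higher and 261 lower coding genes became 970 and 422 with a pseudocount of 0.1, 98 and 111 with 5, and 767 and 417 after rescaling each library to the same sum, while the 5 FPKM filter, no filter, leaving out overlapping genes and rescaling by the median ratio kept both counts within 1.5 times. The coding median of 0.10 became 0.12 with a pseudocount of 0.1, 0.0663 with 5, 0.00 with no filter, 0.065 at 5 FPKM, 0.086 after rescaling to the same sum and 0.0118 by the median ratio. The 159 higher and 85 lower noncoding transcripts became 408 and 164 with a pseudocount of 0.1, 12 and 5 with 5, 25 and 10 at 5 FPKM, and 1704 and 1162 after rescaling to the same sum, which lifts low values over the filter. Their median of 0.23 became 0.347 with a pseudocount of 0.1, 0.0894 with 5, 0.00 with no filter, 0.185 after rescaling to the same sum and 0.10 by the median ratio. With a pseudocount of 5, the NRF2 targets past 2-fold went from 14 to 9, the mitotic genes from 15 to 4 and the plasma proteins from 8 to 2. By the arithmetic of the scale, adding 5 FPKM in place of 1 draws the log2 ratio of low genes further toward 0. The medians of these 3 lists and of the metallothionein, replication and BMP lists kept their sign under all 7 alternatives, from 0.52 to 0.94 for NRF2 targets, 0.46 to 0.65 for mitosis and −0.63 to −0.42 for replication. Of 3066 values of named genes under an alternative, 103 lost the 2-fold call, 42 gained it and 0 changed sign after a call. Depth limits low genes: at 1 FPKM and 1 kb the upper bound of a library's counting interval is more than 2 times its lower bound.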

Other observations

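Beyond the groups above, splicing factors had a median log2 ratio of −0.35 over 41 genes (31 below 0). The U2 auxiliary factor gene U2AF1 stood at 9.01 and 2.86 FPKM and the core protein gene SNRPG at 99.1 and 43.7 FPKM, while LUC7L3 stood at 5.09 and 15.7 FPKM. Proteasome genes had −0.12 over 39 (28 below 0), and mitochondrial ribosome and import genes −0.14 over 72 (50 below 0). ESCRT-III membrane repair genes, which close membrane wounds, had a median of 0.00 over 21. Of these 2 were at least 2-fold higher, ANXA1 (19.9 and 52.1 FPKM) and IST1 (40.9 and 86.6 FPKM), against 3.88% over all genes. After rescaling by the median ratio IST1 was no longer past 2-fold (0.96).

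Runs of at least 3 genes past 2-fold in 1 direction, with starts within 300 kb and no gene past 2-fold the other way between them, were found at 11 places, all of them higher after treatment. The longest was the metallothionein cluster with 5 genes. On chromosome 19, HSD17B14, FTL, TRPM4 and DKKL1 lie from 48813018 to 49375116, and on chromosome 11, EEF1G, CSKMT and SLC3A2 from 62559596 to 62888875. These runs were found by searching the data, in which 464 genes were higher and 261 lower. Genes inside 2-fold can lie within a run, as BAX (40.8 and 38.3 FPKM) does in that on chromosome 19.

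Of the 464 genes at least 2-fold higher in Huh7, 400 were at 1 FPKM or more in a library labelled HepG2, where 77 were also higher and 12 lower. Of the 261 lower genes 184 were, with 33 also lower and 15 higher. Over all genes of those libraries 6.7% were higher and 2.43% lower. Chosen as they were by their Huh7 values, and with no replicate, these counts were not tested. Of the 3 considered fibroblast and stellate markers, LUM stood at 31.7 and 8.05 FPKM in Huh7, COL1A2 at 4.83 and 1.6 FPKM, and RGS5 at 0.267 and 1.29 FPKM.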
